A study of Homo sapiens with 5 samples.

Results

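Genes whose symbol is LINC followed by digits (long intergenic noncoding RNA genes) were examined in NK92MI cells. The members were the rows of the count table with such a symbol and 10 or more counts in at least 2 of the 5 libraries. The table held 57221 rows, of which 955 had a LINC symbol (946 different symbols), and 110 of these met the rule (11.5%). Of the other LINC rows, 612 were at 0 in every library and 233 had counts but fell short. NK92MI is a human natural killer (NK) cell line derived from the line NK-92 and given an IL2 gene, so that it grows without added interleukin 2. Every library came from this one line, and the labels name no further genotype or agent for either group. The DMSO group (2 libraries) received the solvent, and the UNC1999 group (3 libraries) received 10 µM of UNC1999 for 48 h. UNC1999 is a synthetic inhibitor of both EZH2 and EZH1, the alternative catalytic subunits of polycomb repressive complex 2 (PRC2). Only 1 dose, 1 time and 1 cell line were studied, with no inactive control compound in the labels. The series asks which genes respond to UNC1999.

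A LINC symbol is given to a long RNA gene without a known open reading frame that lies apart from protein-coding genes, and it is replaced once a function, a protein product or a host relationship is established. Such transcripts are made by RNA polymerase II, are often spliced and polyadenylated, and are on average less abundant and more restricted to particular cell types than messenger RNAs. Many stay in the nucleus, where some act on neighbouring genes, and many are removed quickly by the nuclear exosome. PRC2 places methyl groups on histone H3 at silent genes and is known to bind RNA with little sequence preference. The table uses older symbols. In RefSeq, 28 of the 110 members now have another name, and 10 are now listed as protein-coding.

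The promoters of 7 members on which the results turn are shown first, with their CpG dinucleotides marked, as examples of lower and higher genes. Of these, 4 belong to genes that were lower with UNC1999 (LINC01270, LINC01271, LINC00888 and LINC00337) and the others to genes that were higher (LINC00641, LINC01021 and LINC00152). Each is the window from 250 bases before to 50 bases after the RefSeq start in GRCh38.p14, written 5′ to 3′ along the gene's own strand, with CpG dinucleotides in capitals. LINC01270 lies at chr20:50292470-50292769 on the plus strand and LINC01271 at chr20:50321293-50321592 on the minus strand. LINC00888 (SNHG33 in RefSeq) lies at chr3:183447358-183447657 on the plus strand. LINC00337 (ICMT-DT) lies at chr1:6235990-6236289 on the plus strand. LINC00641 lies at chr14:21206851-21207150 on the minus strand. LINC01021 (PURPL) lies at chr5:27472042-27472341 on the plus strand, and LINC00152 (CYTOR) at chr2:87455177-87455476 on the plus strand.
LINC01270: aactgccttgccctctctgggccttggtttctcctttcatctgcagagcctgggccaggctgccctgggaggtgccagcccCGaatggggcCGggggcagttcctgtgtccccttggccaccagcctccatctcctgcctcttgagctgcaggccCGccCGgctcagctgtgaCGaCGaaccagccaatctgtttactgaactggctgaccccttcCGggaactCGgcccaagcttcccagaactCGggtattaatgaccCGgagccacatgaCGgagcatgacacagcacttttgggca
LINC01271: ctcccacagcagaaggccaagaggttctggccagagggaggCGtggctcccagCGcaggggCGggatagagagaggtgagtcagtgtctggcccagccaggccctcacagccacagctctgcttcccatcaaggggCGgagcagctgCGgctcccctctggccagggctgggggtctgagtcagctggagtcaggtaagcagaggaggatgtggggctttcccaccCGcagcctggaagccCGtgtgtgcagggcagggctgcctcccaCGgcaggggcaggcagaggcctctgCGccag
LINC00888: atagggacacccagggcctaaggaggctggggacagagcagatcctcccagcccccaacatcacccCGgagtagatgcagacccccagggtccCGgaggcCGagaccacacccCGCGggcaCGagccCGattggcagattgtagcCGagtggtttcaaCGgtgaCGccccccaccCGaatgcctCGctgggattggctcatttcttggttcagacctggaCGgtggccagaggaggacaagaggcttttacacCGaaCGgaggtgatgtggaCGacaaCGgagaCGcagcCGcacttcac
LINC00337: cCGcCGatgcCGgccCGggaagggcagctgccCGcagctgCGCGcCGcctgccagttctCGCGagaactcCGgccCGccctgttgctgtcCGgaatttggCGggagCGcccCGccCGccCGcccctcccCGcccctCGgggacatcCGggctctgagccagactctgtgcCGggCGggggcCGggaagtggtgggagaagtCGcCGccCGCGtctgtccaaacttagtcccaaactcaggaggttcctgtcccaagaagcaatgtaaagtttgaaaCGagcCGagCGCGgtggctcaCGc
LINC00641: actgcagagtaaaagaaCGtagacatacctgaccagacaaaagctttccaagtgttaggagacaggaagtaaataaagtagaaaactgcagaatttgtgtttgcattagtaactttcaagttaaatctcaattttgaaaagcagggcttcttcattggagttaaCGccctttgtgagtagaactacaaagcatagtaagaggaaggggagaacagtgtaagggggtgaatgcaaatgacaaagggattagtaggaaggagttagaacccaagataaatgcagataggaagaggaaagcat
LINC01021: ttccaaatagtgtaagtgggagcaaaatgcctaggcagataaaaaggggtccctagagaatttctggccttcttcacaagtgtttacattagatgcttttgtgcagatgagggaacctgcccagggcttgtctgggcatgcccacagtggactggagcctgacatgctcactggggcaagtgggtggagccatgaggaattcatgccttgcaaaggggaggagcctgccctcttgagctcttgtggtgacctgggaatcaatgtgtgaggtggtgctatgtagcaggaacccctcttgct
LINC00152: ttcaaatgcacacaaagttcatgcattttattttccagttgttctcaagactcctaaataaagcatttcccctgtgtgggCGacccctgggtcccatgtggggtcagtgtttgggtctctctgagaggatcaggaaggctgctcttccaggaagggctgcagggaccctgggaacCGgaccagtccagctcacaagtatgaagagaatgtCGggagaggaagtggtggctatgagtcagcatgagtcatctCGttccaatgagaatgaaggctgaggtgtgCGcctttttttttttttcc

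The 4 windows of lower genes held 11, 9, 19 and 33 CpG dinucleotides in the order printed, and the 3 windows of higher genes held 2, 0 and 5. Over all 27305 promoter windows of the RefSeq table the median was 14. At least 33 CpG, as in LINC00337, were present in 16.9% of all windows, while 88.5% held at least the 2 of LINC00641. A promoter entry was found for 89 of the 110 members, with a median of 16 CpG. Among members called by the test described next, the 12 lower genes with an entry had a median of 16.5 (1 to 33, with 1 in LINC01588, 2 in LINC01018 and 4 in LINC00623) and the 3 higher genes a median of 2, against 19.5 in the 70 that were tested and not called. These windows are a description, with no test. The AP-1 motif TGAGTCA, searched on both strands, occurred 2 times in the window of LINC01271 and 2 times in that of LINC00152. It was present in 4.92% of all windows and in 8 of the 89 member windows (8.99%). The motif CACGTG was in none of the 7 windows. The motif CCAAT, on either strand, was present in those of LINC01270, LINC00888, LINC00641 and LINC00152, and in 35.7% of all windows. The motifs were picked after the sequences had been seen.

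LINC transcripts made up a small part of the counted RNA. All LINC rows together took 0.094% and 0.097% of counts in the DMSO libraries and 0.091%, 0.092% and 0.086% in the UNC1999 libraries. The groups did not overlap in this share, and UNC1999 replicate 3 was lowest. The members carried between 95.3% and 96.6% of these counts in each library. The 6 most abundant members held 30.5% and 32.4% of member counts in DMSO and 26.3%, 28.4% and 27.3% in UNC1999. The difference in the LINC share therefore need not hold for the other members, and it was not tested. The mean count of a tested member over the 5 libraries had a median of 34.0 and ran from 7.4 to 801.6, while the median over all tested rows was 203.4. Accordingly, the median standard error of a log2 fold change was 0.26 for members and 0.14 for all tested rows. In bulk RNA, fewer cells with a transcript and less of it per cell cannot be told apart.

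Totals of counts lay between 8442908 and 8748106 per library, and a library's 3-count limit lay between 0.327 and 0.373 CPM (counts scaled to library size), which covers counting error only. Of 10 NK cell markers, 9 had at least 10 counts in 2 libraries and NCR3 was at 0. Their summed level was 6620 to 6769 CPM in DMSO and 6094 to 6926 CPM in UNC1999. The T cell markers CD3D, CD3G and CD4, the B cell marker MS4A1, the monocyte marker LYZ, the red cell marker HBA1 and the fibroblast marker COL1A2 were at 0 in all libraries. Of the markers of these other types, only CSF1R reached 10 counts in 2 libraries. The log2 fold change of EZH2 mRNA was 0.20 (adjusted p = 0.178 in edgeR). EZH1 mRNA fell by 0.31 (adjusted p = 0.048). The labels do not tell whether each library had its own culture, and the p-values below therefore rest on a between-library spread that may be only technical.

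With UNC1999, 5 LINC genes rose and 14 fell. The 5 that rose were LINC00342, LINC00641, LINC01021, LINC00504 and LINC00152. The 14 that fell were led by LINC01271, LINC01270, LINC00334 and LINC00888 and included LINC00649, the most abundant member. Called means an adjusted p under 0.05 in edgeR's quasi-likelihood test over all 13075 tested rows. The test covered 106 of the 110 members, and LINC00310, LINC01134, LINC01477 and LINC01232 had too few counts for it. Of the 106, 17.9% were called, against 35.2% of all tested rows. Higher calls were 4.72% of members against 15.7% of all rows, and lower calls 13.2% against 19.5%. A further 87 members were not called, and 25 members had an unadjusted p under 0.05. A call with at least a 2-fold change was reached by 3 higher and 3 lower members (3.22% of all tested rows, either direction). With 1 UNC1999 library fewer, 5 members were higher and 12 lower without replicate 1 (3682 of 12876 rows called). The counts were 6 and 15 without UNC1999 replicate 2 (5892 of 12880), and 5 and 8 without UNC1999 replicate 3 (3861 of 12906). Leaving out a DMSO library left 1 in that group, and calls then fell among members and over all tested rows. The median log2 fold change of members was -0.06 without DMSO replicate 1 and -0.10 without DMSO replicate 2.

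The share called followed the counts behind a gene. Among the 40 members with a mean of at least 50 counts, 3 were higher and 12 lower (37.5% called), and among the 66 below that mean 2 were higher and 2 lower (6.06%). Fitted with a stricter filter that kept 40 members, 4 were higher and 9 lower, beside 43.3% of all rows kept by that filter. The median log2 fold change of members was -0.09, with quartiles of -0.36 and 0.16, and 62 of the 106 lay below 0. Over all tested rows the median was -0.01, with quartiles of -0.31 and 0.28. The CPM ranges of the groups did not overlap for 42 members (39.6%; 13 higher and 29 lower), against 54.6% of all rows. All 19 called members were among them. The split of calls moved with the scaling. Library totals alone gave 8 higher and 8 lower members and moved the median of all rows by 0.10, and upper-quartile factors gave 6 and 9. The median of members lay 0.08 below that of all rows under each of these scalings and under the one used here.

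**Figure D1:**
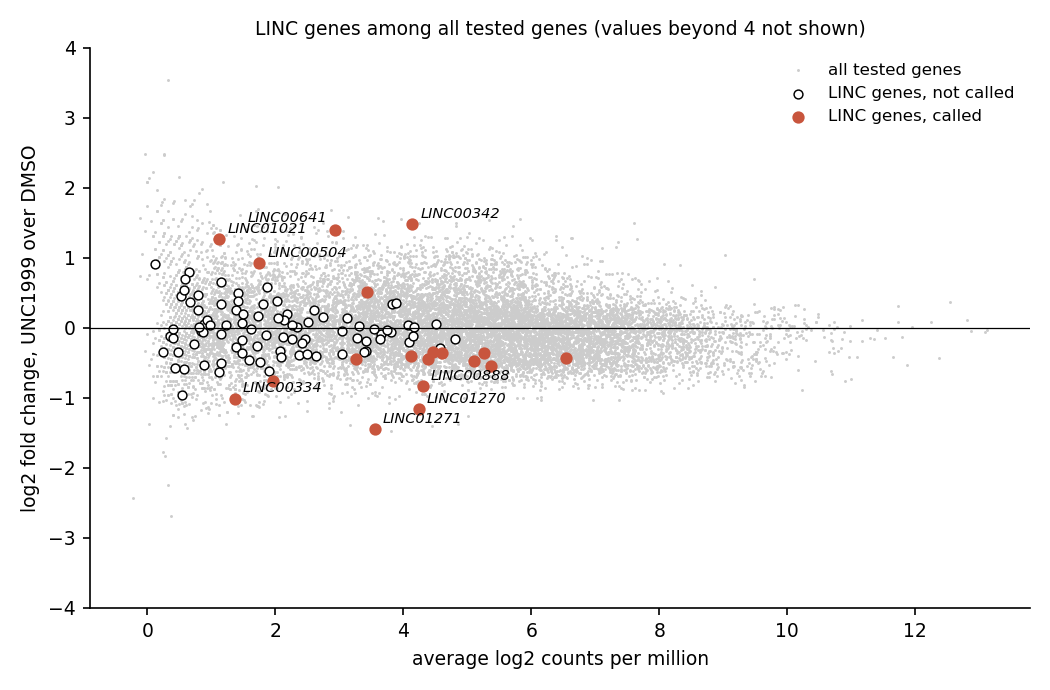
Log2 fold change (UNC1999 over DMSO, vertical axis) against average log2 CPM (horizontal axis) for all tested rows (grey), members not called (open circles) and called members (filled). Most members lie at low levels, the called ones extend from LINC00342 at 1.48 to LINC01271 at -1.45, and the most abundant, LINC00649, is at -0.43.

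LINC00342 had the highest log2 fold change among called members. It was counted 59 and 78 times in DMSO and 216, 194 and 212 times in UNC1999. Every UNC1999 library was above both DMSO libraries by more than the spread within either group. The mean level was 8.30 ± 1.38 CPM (SD, n = 2) in DMSO and 23.2 ± 1.80 CPM (SD, n = 3) in UNC1999, a log2 fold change of 1.48 (SE 0.16 and edgeR adjusted p = 1.65e-08). The gene lies on chromosome 2 from 95807118 to 95816215 on the minus strand (GENCODE 29, GRCh38), and no promoter entry was matched for it. Its nearest tested protein-coding gene by start site, ANKRD36C, an ankyrin repeat gene 175616 bp away, also rose, by 0.79 (adjusted p = 9.75e-04).

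LINC00641, on chromosome 14 from 21200079 to 21206900, was counted 22 and 39 times in DMSO and 79, 79 and 103 times in UNC1999. The groups were separate, and DMSO replicate 1 was the lowest library. The means were 3.69 ± 1.35 CPM (SD, n = 2) and 9.75 ± 1.71 CPM (SD, n = 3), which is a log2 fold change of 1.39 (SE 0.23 and edgeR adjusted p = 1.14e-05). Leaving out single libraries moved that log2 fold change between 1.06 and 1.83, and it remained called in each case. LINC00342 and LINC00641 were the only ones of these 5 that were also called by DESeq2's Wald test and with a correction for GC content and transcript length (below).

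The other higher genes had fewer counts or smaller changes. LINC01021 is PURPL, an RNA known as a target of p53 that lowers p53 levels. It had 9 and 8 counts in DMSO and 20, 24 and 23 in UNC1999, a log2 fold change of 1.26 (SE 0.38 and edgeR adjusted p = 0.00886). It was a member only through the UNC1999 libraries, so its counts there are part of why it was included. LINC00504 had 16 and 17 counts in DMSO and 35, 36 and 31 in UNC1999, a log2 fold change of 0.92 (SE 0.29, adjusted p = 0.0126). LINC00152 is CYTOR, an RNA named for an effect on the cytoskeleton. It had 65 and 73 counts in DMSO and 104, 127 and 91 in UNC1999, a log2 fold change of 0.52 (SE 0.18, adjusted p = 0.0202). It has a near-identical copy elsewhere on chromosome 2 (MIR4435-2HG), so its count is uncertain. In all of them the groups were separate, but each call was lost when either DMSO library was left out. Without DMSO replicate 1 the log2 fold changes of LINC01021, LINC00504 and LINC00152 were 1.38, 0.90 and 0.46. They were 1.15, 0.93 and 0.57 without DMSO replicate 2. LINC00152 was also not called without UNC1999 replicate 2 (adjusted p = 0.0592).

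**Figure D2:**
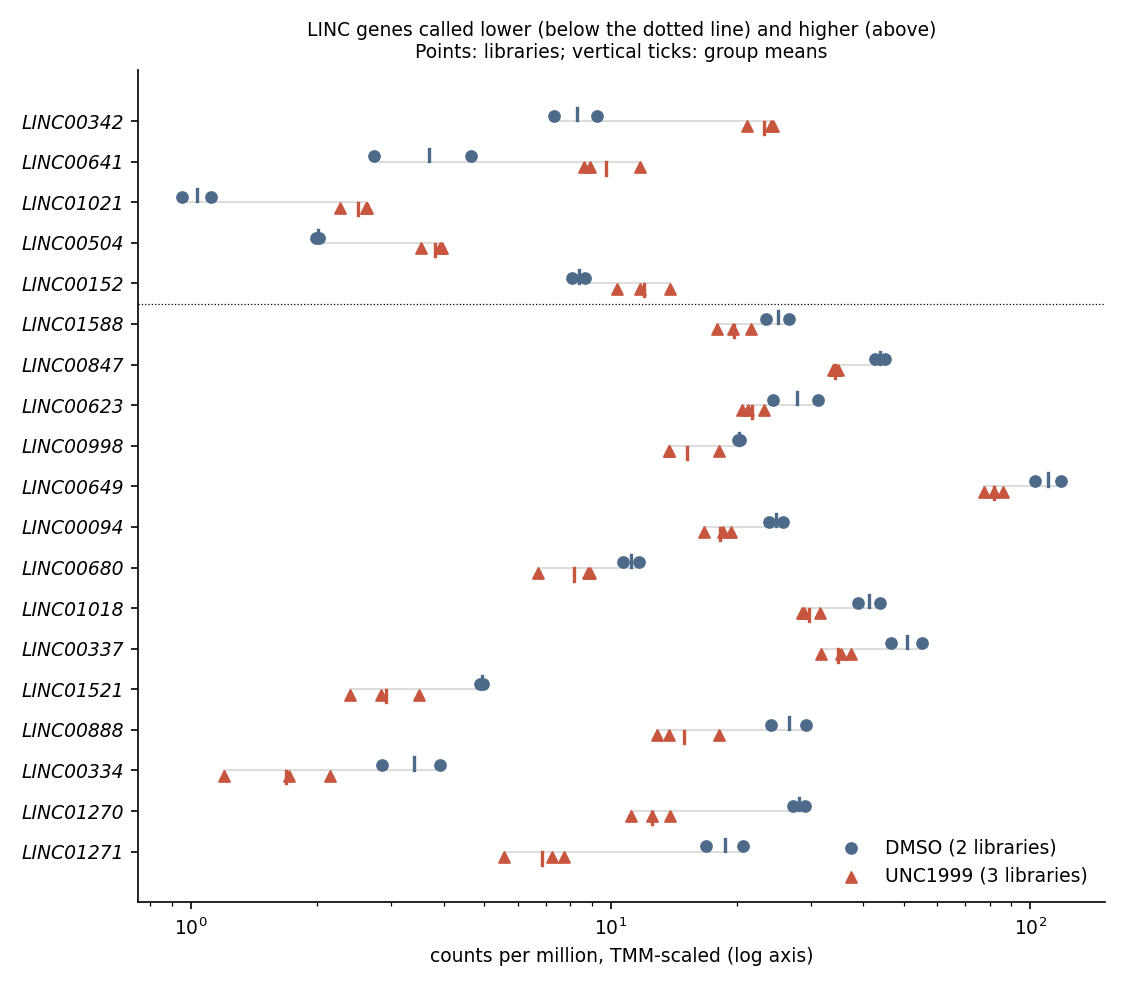
CPM (log axis) of the 19 called members in each library, with DMSO libraries as circles, UNC1999 libraries as triangles and group means as vertical ticks. The groups are separate in every row, from LINC01021 near 1 CPM in DMSO to LINC00649 at 110 CPM in DMSO.

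The largest falls were in LINC01271 and LINC01270, a pair of genes that overlap on opposite strands of chromosome 20 (50310711 to 50321342 and 50292720 to 50314922). LINC01271 was counted 166 and 142 times in DMSO and 64, 71 and 49 times in UNC1999. LINC01270 was counted 234 and 229 times in DMSO and 111, 127 and 98 times in UNC1999. For both, all UNC1999 libraries were far below both DMSO libraries. LINC01271 fell by 1.45 on the log2 scale (SE 0.17 and edgeR adjusted p = 5.16e-08), from 18.8 ± 2.63 CPM (SD, n = 2) to 6.85 ± 1.13 CPM (SD, n = 3). LINC01270 fell by 1.17 (SE 0.14, adjusted p = 8.03e-08), from 28.1 ± 1.29 CPM (SD, n = 2) to 12.5 ± 1.35 CPM (SD, n = 3). Their exons overlap in part, and the strand setting of the counting is not given. Reads from the shared part may therefore not be told apart. The nearest protein-coding gene of both, CEBPB, encodes a basic leucine zipper transcription factor and starts 101986 bp from LINC01270. CEBPB was counted 3667 and 4181 times in DMSO and 2969, 2789 and 3364 times in UNC1999, and fell by 0.48 (SE 0.11, adjusted p = 7.30e-04). All of these genes were lower in every UNC1999 library.

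LINC00888, now SNHG33 in RefSeq and a transcribed unprocessed pseudogene in GENCODE 29, lies on chromosome 3 from 183447608 to 183456013. It was counted 235 and 202 times in DMSO and 114, 166 and 121 times in UNC1999. UNC1999 replicate 2 stood nearest to DMSO, yet below both of its libraries. The gene fell by 0.83 on the log2 scale (SE 0.15 and edgeR adjusted p = 3.32e-05), while its nearest coding gene MCF2L2 had a log2 fold change of -0.01 (adjusted p = 0.977). LINC01270, LINC01271 and LINC00888, with LINC00342 and LINC00641, were the 5 called members that every one of the 16 refits called again.

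LINC00334 and LINC01521 were less abundant. LINC00334 had 23 and 33 counts in DMSO and 19, 11 and 15 in UNC1999, and it fell by 1.01 (SE 0.32 and edgeR adjusted p = 0.0123). Its exons overlap those of POFUT2, an O-fucosyltransferase gene, which had a log2 fold change of -0.13 (adjusted p = 0.478). Without DMSO replicate 2, which left 1 DMSO library, the log2 fold change of LINC00334 was -0.76 and it was not called. LINC01521 starts 545 bp from PATZ1, a zinc finger gene, in the opposite direction. It had 40 and 41 counts in DMSO and 31, 26 and 21 in UNC1999, and fell by 0.76 (SE 0.25, adjusted p = 0.0177), while PATZ1 had a log2 fold change of 0.07 (adjusted p = 0.707). The call of LINC01521 was lost without UNC1999 replicate 3 (adjusted p = 0.0704). It was also lost without DMSO replicate 1 (log2 fold change -0.75) or DMSO replicate 2 (-0.77).

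Of the 6 most abundant members, 5 fell and LINC00892 was not called. Of all tested rows 19.5% were called lower, and of members with a mean of at least 50 counts 37.5% were called. LINC00649, with 824 and 993 counts in DMSO and 685, 787 and 719 in UNC1999, fell by 0.43 (SE 0.11 and edgeR adjusted p = 0.00219). LINC00337, named ICMT-DT in RefSeq as a transcript divergent from ICMT, had 443 and 391 counts in DMSO and 314, 342 and 278 in UNC1999, and fell by 0.54 (SE 0.12, adjusted p = 5.89e-04). LINC01018, with 313 and 368 counts in DMSO and 253, 289 and 254 in UNC1999, fell by 0.48 (SE 0.12, adjusted p = 0.00221). For all of them every UNC1999 library was below both DMSO libraries, and in CPM the gap was wider than that between the DMSO libraries. LINC00847 fell by 0.36 (adjusted p = 0.0174) and LINC00623 by 0.36 (adjusted p = 0.0363). LINC00892, which lies 8650 bp from the start of CD40LG, a T cell costimulatory ligand gene, had 224 and 265 counts in DMSO and 231, 255 and 226 in UNC1999, a log2 fold change of -0.16 (SE 0.13, adjusted p = 0.345). These 6 genes held 30.5% and 32.4% of member counts in DMSO and 26.3%, 28.4% and 27.3% in UNC1999. Several calls were lost when 1 DMSO library was left out, but calls then fell over all tested rows too. LINC00337 was not called without DMSO replicate 1 (log2 fold change -0.42). Without DMSO replicate 2, LINC00649 (-0.33), LINC01018 (-0.39) and LINC00623 (-0.17) were not called. LINC00847 was not called without DMSO replicate 1 (-0.40) or DMSO replicate 2 (-0.32). It was also not called without UNC1999 replicate 1 (edgeR adjusted p = 0.0702) or UNC1999 replicate 3 (0.0517). Neither was LINC00623 without UNC1999 replicate 3 (0.105).

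Compared per length of the longest GENCODE transcript, the order of mean levels changed. LINC00623 came first at 29.03 CPM per kb, followed by LINC00571 at 26.1, LINC00847 at 20.4, LINC00337 at 20.2, LINC00892 at 16.1 and LINC00998 at 16.1 CPM per kb. LINC00571 had 113 and 118 counts in DMSO and 115, 133 and 113 in UNC1999, a log2 fold change of -0.06 (SE 0.15 and edgeR adjusted p = 0.796). Its groups overlapped.

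Several of the 10 members that RefSeq now lists as protein-coding encode microproteins. Of these 10, 2 fell and 8 were not called. The share called was 20.0%, against 17.7% of the other tested members and 35.2% of all tested rows. LINC00998 is SMIM30, which encodes a small membrane protein. Its counts of 162 and 171 in DMSO and 122, 166 and 121 in UNC1999 gave a fall of 0.41 (SE 0.15 and edgeR adjusted p = 0.0281), with UNC1999 replicate 2 close to DMSO. LINC00094 is BRD3OS, on the strand opposite to the bromodomain gene BRD3. Its counts of 207 and 200 in DMSO and 171, 153 and 163 in UNC1999 gave a fall of 0.44 (SE 0.13, adjusted p = 0.00913). The call of LINC00094 was lost without DMSO replicate 1 (log2 fold change -0.39). That of LINC00998 was lost without DMSO replicate 1 (-0.42) or DMSO replicate 2 (-0.40). It was also lost without UNC1999 replicate 1 (edgeR adjusted p = 0.129) or UNC1999 replicate 3 (0.108). LINC00493, now SMIM26 and known for a mitochondrial microprotein, had 13 and 16 counts in DMSO and 8 in each UNC1999 library. Its groups did not overlap, but its log2 fold change of -0.97 (SE 0.42) was not called (adjusted p = 0.0706). It met the count rule through the DMSO libraries only, so its higher counts there are part of why it was included. LINC00116, now MTLN, encodes mitoregulin of the inner mitochondrial membrane and had a log2 fold change of 0.02 (SE 0.23, adjusted p = 0.966). LINC00176 (C20orf204) had a log2 fold change of 0.33 (adjusted p = 0.149), with overlapping groups. It was called without UNC1999 replicate 2 (log2 fold change 0.53, adjusted p = 0.00856). The other five were LINC00672 (LASP1NB) at -0.49, LINC01314 (CTXND1) at -0.46, LINC01125 (C2orf92) at -0.05, LINC00854 (CCDC200) at 0.04 and LINC00959 (C10orf143) at 0.26, with adjusted p between 0.175 and 0.942.

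The other two called members were LINC00680 and LINC01588. LINC00680, a transcribed unprocessed pseudogene in GENCODE 29, had 86 and 98 counts in DMSO and 79, 81 and 59 in UNC1999 and fell by 0.45 (SE 0.18 and edgeR adjusted p = 0.0434). Its nearest tested coding gene, PRIM2 of the DNA primase, starts 646696 bp away and rose by 0.41 (adjusted p = 0.0147). LINC01588 had 214 and 197 counts in DMSO and 191, 179 and 157 in UNC1999 and fell by 0.35 (SE 0.14, adjusted p = 0.0441). In both genes the highest UNC1999 library lay nearer in CPM to the lower DMSO library than to the lowest UNC1999 library. Each lost its call in 11 of 16 refits, among them that without UNC1999 replicate 3 (adjusted p of 0.201 for LINC00680 and 0.174 for LINC01588). The calls were also lost without DMSO replicate 1 (log2 fold changes of -0.52 and -0.26) and without DMSO replicate 2 (-0.39 and -0.44).

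Among the 14 lower members, the library nearest to DMSO was UNC1999 replicate 2 in 8 and UNC1999 replicate 1 in 6, and never UNC1999 replicate 3. These 14 were picked by their call, and the same split was not counted over all lower rows. The median log2 difference of members from the DMSO mean was -0.03, -0.09 and -0.06 in UNC1999 replicates 1, 2 and 3. Over all tested rows the corresponding medians were 0.01, -0.07 and -0.01.

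Many members overlapped other genes, and how reads from the shared stretches were counted is not known. In GENCODE 29, 103 tested members had a position. Exons of 44 overlapped an exon of another gene on either strand, and 1 of these was higher and 11 lower (27.3% called, median log2 fold change -0.22). That share was below the 35.2% of all tested rows, and the median was -0.08 once GC content and length were corrected for. The median mean count of these 44 was 43.7, against 26.9 in members that overlapped no gene. A further 23 overlapped another gene's body only, with 1 higher and 1 lower (median 0.04). The 36 that overlapped no gene had 3 higher (LINC00342, LINC00641 and LINC01021) and 2 lower (LINC01521 and LINC01018), with a median of -0.02. The part of the overlap in these calls was not tested.

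Where the overlapped gene was itself tested, it moved with its LINC partner in some pairs only. LINC00337 overlaps exons of ICMT, which encodes the enzyme that methylates isoprenylated cysteines. ICMT was counted 3093 and 3029 times in DMSO and 2080, 2470 and 2059 times in UNC1999 and fell by 0.60 (edgeR adjusted p = 4.26e-05). BRD3, the partner of LINC00094, fell by 0.39 (adjusted p = 0.00625). HEIH, which overlaps LINC00847, had a log2 fold change of -0.18 (adjusted p = 0.296). ATP5O, which encodes an ATP synthase subunit and overlaps LINC00649, had 31 to 43 counts per library and a log2 fold change of -0.09 (adjusted p = 0.799). There were 3 pairs of tested members that overlapped each other, all on opposite strands. Besides LINC01270 with LINC01271 these were LINC00115 (log2 fold change -0.59, adjusted p = 0.303) with LINC01128 (-0.28, adjusted p = 0.1), and LINC00667 (0.02, adjusted p = 0.946) with LINC00526 (0.20, adjusted p = 0.661). In these other two pairs neither gene was called.

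The fold change of each LINC gene was set beside that of its nearest protein-coding gene. The nearest coding gene was tested for 68 tested members, and 37 of the 68 pairs had the same sign. Pearson's r across pairs was 0.28 and Spearman's rho 0.17, given as descriptions of pairs that share the same 5 libraries. In the 22 pairs whose starts lay within 5000 bp, r was 0.50, and it was 0.13 once GC content and length were corrected for. In the 46 pairs farther apart, r was 0.21. In the 40 pairs whose LINC gene had no exon overlap with another gene, r was 0.24 (0.03 with offsets) and 19 had the same sign. Of 13 called members with a tested neighbour, 6 had a called neighbour, 5 in the same direction and 1, LINC00680 with PRIM2, in the opposite one, while 31 of all 68 pairs had a called neighbour. Of those 5, LINC01270 and LINC01271 share the neighbour CEBPB. In these 13 pairs, which were picked by the call of the LINC gene, r was 0.81 (0.76 with offsets), rho was 0.78 and 9 had the same sign. LINC01018 and NSUN2, an RNA cytosine methyltransferase gene that starts 51155 bp away, were one of the pairs called in the same direction. NSUN2 fell by 0.41 (edgeR adjusted p = 0.00298). The 25 members with a coding start within 5000 bp included 3 lower and no higher genes, and the 78 others 11 lower and 5 higher. The shares called were 12.0% and 20.5%, against 35.2% of all tested rows.

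**Figure D3:**
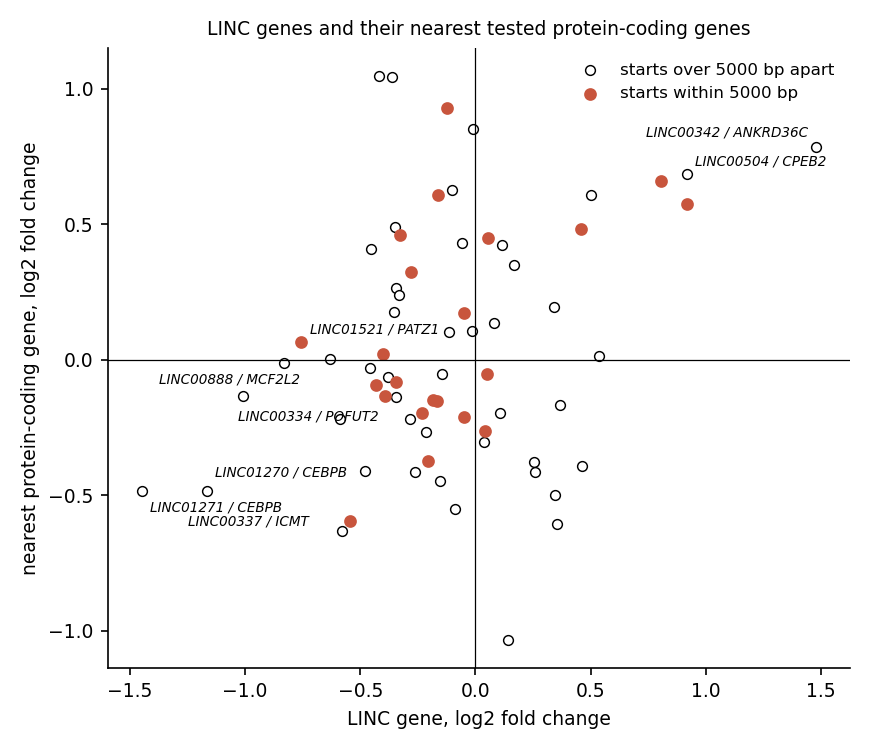
Log2 fold change of the nearest tested protein-coding gene (vertical axis) against that of the LINC gene (horizontal axis), with pairs whose starts lie within 5000 bp filled; called members with a log2 fold change beyond 0.5 in either direction are named. The 68 pairs spread over all 4 quadrants, and 37 have the same sign in both genes.

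A pair of members are described with their neighbours because both neighbours were called and the members were not, and they were chosen after their values had been seen. Other members that were not called also had a called neighbour, such as LINC00824 with MYC. LINC00299 starts 295224 bp from ID2, which encodes an inhibitor of helix-loop-helix factors needed for NK cell development. LINC00299 had 110 and 95 counts in DMSO and 169, 128 and 130 in UNC1999, a log2 fold change of 0.35 (SE 0.16 and edgeR adjusted p = 0.0878). Its groups did not overlap, and it was called in 4 of 16 refits, those with library totals alone, upper-quartile factors, the stricter filter and without UNC1999 replicate 2 (adjusted p = 0.0206). ID2 had 2157 and 2492 counts in DMSO and 1548, 1900 and 1524 in UNC1999 and fell by 0.61 (SE 0.11, adjusted p = 4.55e-05). LINC01578 is CHASERR, known for restraining expression of its neighbour CHD2, a chromatin remodeller gene. By start site the nearest coding gene of LINC01578 was AC013394.1, which was not tested, so CHD2 was outside the pairs above. LINC01578 had 143 and 161 counts in DMSO and 133, 164 and 160 in UNC1999, with overlapping groups and a log2 fold change of -0.12 (SE 0.14, adjusted p = 0.574). CHD2 rose by 0.44 (SE 0.11, adjusted p = 0.00214), with 488 and 529 counts in DMSO and 726, 781 and 738 in UNC1999. The other members with an unadjusted p under 0.05 that were not called were LINC00339, LINC01128, LINC00493, LINC01206 and LINC00294.

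The direction of calls of LINC genes differed with GC content. Members were divided into a low, a middle and a high group by the GC content of their longest transcript. The share called was similar, at 20.0%, 18.2% and 17.1% from the low to the high group. All 5 higher members were in the low group (35.6% to 43.7% GC, 35 genes), together with 2 lower ones. The middle group (33 genes) and the high group (35 genes) each had 6 lower and no higher members. Median log2 fold changes were 0.04, -0.22 and -0.17 from the low to the high group, and protein-coding genes within the same limits had medians of 0.30, -0.30 and 0.00. Among those coding genes 1394 were higher and 307 lower in the low group (48.8% called), 180 and 1349 in the middle group (51.0%), and 236 and 506 in the high group (19.8%). GC content and length were therefore also fitted as offsets, which remove from each library its own trend with both over 11244 annotated rows. With offsets 3 members were higher and 10 lower among 103 tested (34.2% of all rows fitted so were called, 15.1% higher and 19.0% lower). The medians of the groups became -0.08, 0.04 and -0.06, and that of all members -0.03.

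Of the 19 called members, 9 were called again in the same direction with offsets. Log2 fold changes with offsets were 1.38 for LINC00342 (edgeR adjusted p = 5.96e-09), 1.16 for LINC00641 (1.14e-04), -1.19 for LINC01271 (1.74e-07), -0.79 for LINC01270 (2.57e-06) and -0.97 for LINC00888 (2.08e-07). LINC01521, LINC00337, LINC00649 and LINC00998 also kept their calls. The log2 fold change of LINC00337 was then -0.25 (adjusted p = 0.0425), and LINC00998 fell further with them, by 0.73 (adjusted p = 2.40e-05). LINC01021 (log2 fold change 0.95, adjusted p = 0.0521), LINC00504 (0.60, 0.113) and LINC00152 (0.23, 0.28) were not called with offsets. Neither were LINC00334, LINC01018, LINC00680, LINC00094, LINC00623, LINC00847 and LINC01588, and LINC00847 moved to 0.02 (adjusted p = 0.912). With offsets, 4 further members were called. LINC00092 was higher by 0.81 (adjusted p = 0.0466), and LINC00571 (-0.41, adjusted p = 0.0198), LINC01024 (-0.60, adjusted p = 0.0177) and LINC01578 (-0.32, adjusted p = 0.0478) were lower. The offsets cannot tell a technical trend from a true change that follows GC content or length.

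**Figure D4:**
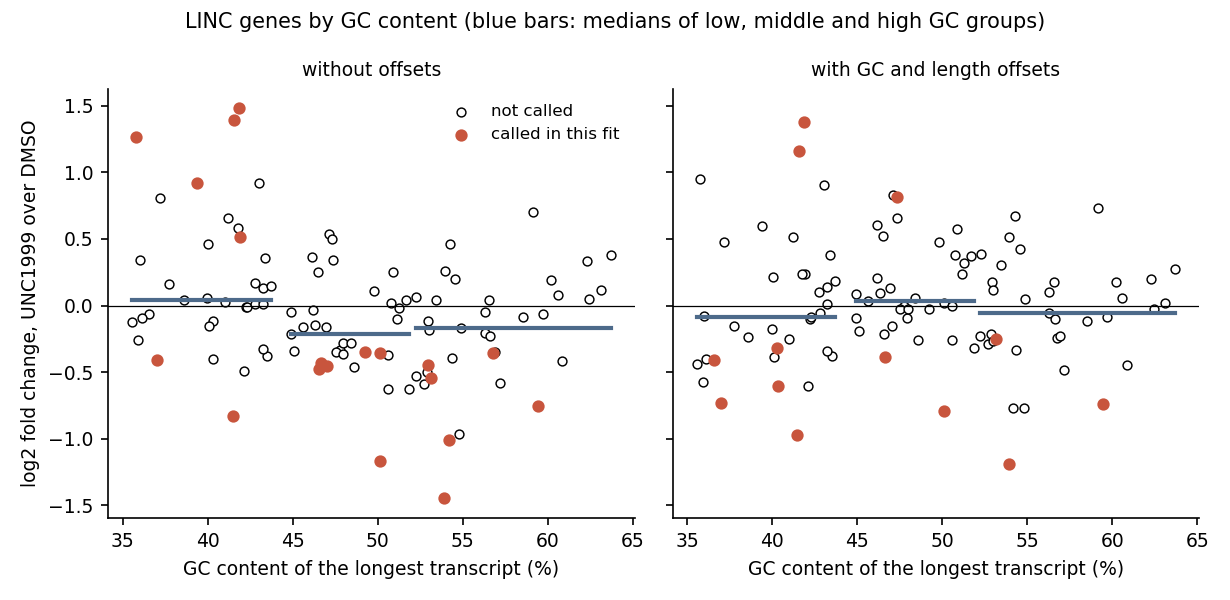
Log2 fold change (UNC1999 over DMSO) against GC content of the longest transcript for 103 tested members, without offsets (left) and with GC and length offsets (right); filled points were called in that fit and bars are medians of the low, middle and high GC groups. The medians run from 0.04 to -0.22 and -0.17 on the left and lie between -0.08 and 0.04 on the right.

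Other classes of noncoding names were called in different proportions, which are given as descriptions. Names ending in AS and a number (354 tested) had 37 higher and 46 lower (23.4% called, median log2 fold change -0.06). Clone-style names (1800 tested) had 157 higher and 254 lower (22.8%, median -0.06). The 17 small nucleolar RNA host genes named SNHG had 7 lower and no higher (41.2%, median -0.29; 5 lower and 1 higher with library totals alone), and 11 microRNA host genes had 1 higher and 1 lower. Protein-coding genes (10209 tested) were called in 38.9%, with a median of 0.00. Median mean counts were 34.0 for tested LINC names, 62.9 for AS names, 37.9 for clone-style names, 266 for SNHG names and 290 for protein-coding genes.

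Genes that act in the removal of noncoding RNA moved in both directions. The list held genes for the nuclear exosome and its adaptors, the cap-binding genes NCBP1 and NCBP2, and the exonuclease gene XRN2. Of its 27 tested genes, 7 were higher and 6 lower (15.7% and 19.5% of all tested rows), with a median log2 fold change of 0.01. ZFC3H1, which encodes a scaffold that brings polyadenylated nuclear RNA to the exosome, rose by 0.99 (SE 0.14 and edgeR adjusted p = 7.88e-07), from 15.6 ± 0.212 CPM (SD, n = 2) to 30.9 ± 0.999 CPM (SD, n = 3). PABPN1, the nuclear poly(A) binding protein gene of the same pathway, fell by 0.52 (SE 0.12, adjusted p = 6.07e-04). With offsets, 4 were higher and 9 lower. Calls in this list also fell when a DMSO library was left out, as they did over all tested rows. Of 15 tested genes of the Integrator complex, which ends transcription of many noncoding RNAs, 4 were higher and 3 lower (median 0.21), beside the same shares of all rows. INTS2 rose by 0.93 (SE 0.14, adjusted p = 2.22e-06) and INTS4 fell by 0.52 (SE 0.13, adjusted p = 0.00136), while with offsets 4 were higher and 1 lower. Only INTS2 and INTS7 were called the same way in both fits, and the 1 lower gene with offsets was NABP1. Without UNC1999 replicate 2, 7 Integrator genes were higher. Library totals alone also gave 7 higher.

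The count threshold of 10 in 2 libraries decided who was a member. The lowest second-highest count of a member was 10, and the first 2 such members by symbol were LINC00310, with counts of 2 and 7 in DMSO and 3, 10 and 11 in UNC1999, and LINC01134, with 10 and 9 in DMSO and 3, 10 and 7 in UNC1999. Just outside it was LINC00852, with 12 and 7 in DMSO and 9, 9 and 8 in UNC1999, and another row there also had a second-highest count of 9. Of the 110 members, 82 had at least 10 counts in all 5 libraries. The rule was met through UNC1999 libraries only by 5 members and by 2 through DMSO libraries only, and 1 of these, LINC01021, was called. LINC00484 stood on 2 rows of the table, which were kept apart, and neither was called.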

How the data were processed

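RNA was sequenced from NK92MI cells with DMSO (2 libraries) or UNC1999 (3 libraries). The table deposited by the authors holds raw counts of reads for every gene symbol and library. Tools listed by the submitters' processing notes are HTSeq 0.13.5, STAR 2.7.9, fastp and edgeR 3.34.0, with the build hg19. Not given in the sources used here are the annotation, strand setting, RNA selection and treatment of reads with several matches, so counts of overlapping genes and of near-identical copies are uncertain. Rows that share a symbol (222 symbols, 1939 rows) were kept apart.

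After filterByExpr, the quasi-likelihood test of edgeR 4.0.16 (R 4.3.3, estimateDisp and glmQLFit) compared the groups, using TMM factors of 0.954 and 0.961 for DMSO and 1.02, 1.05 and 1.01 for UNC1999, with Benjamini-Hochberg adjustment over 13075 rows. CPM are scaled by these factors, and standard errors are the log2 fold change over the root of F. Names, positions, GC content and length came from GENCODE 29 (GRCh38, 107 members matched) and RefSeq (110 matched), by symbol. No coordinates were converted from hg19. The steps were tested on simulated data. Offsets came from a spline fit, per library, of its difference from the mean of all libraries on GC content (6 degrees of freedom) and log2 length (4).

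Members and lists were chosen with earlier results of these data known. The text names the 8 called members with the highest and the 8 with the lowest fold change (groups not overlapping, average log2 CPM of at least 0), the 6 most abundant, the 3 smallest p per direction, members now protein-coding, those nearest to the count threshold, nearest coding genes of the first set, overlapping member pairs and the best gene of each list per direction. Other names were chosen after their values were seen. Alternatives were DESeq2 1.42.0 size factors and Wald test, limma-voom (limma 3.58.1), no or upper-quartile factors, 2 other filters, robust dispersion, a replicate block, offsets, annotated rows only, each library left out, a threshold of 0.01 and 2 subsets of members.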

Additional observations from a re-analysis of the deposited data

How the results depend on the processing

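With library totals alone, members called were 8 higher and 8 lower (median log2 fold change 0.0135), and with upper-quartile factors 9 were lower (median -0.0202). The stricter filter gave 9 lower (median -0.12), and the DESeq2 Wald test 2 higher and 7 lower. GC and length offsets gave 3 higher (median -0.0256), and LINC00847 changed sign to 0.0162; they gave 4 turnover genes higher and 1 Integrator gene lower. Library totals alone gave 7 Integrator genes higher. Members with a mean of 50 counts had 3 higher (median -0.16), those that overlap no other gene 3 higher and 2 lower (median -0.0151), and a threshold of 0.01 left 3 and 7. Leaving out single UNC1999 libraries gave 5 to 6 members higher and 8 to 15 lower, with 8 lower without UNC1999 replicate 3. It gave 6 to 10 turnover genes higher and 4 to 9 lower, and 3 to 7 Integrator genes higher. When a DMSO library was left out, fewer members and fewer rows of the whole table were called. Over all single libraries left out, the medians of members ran from -0.1289 to -0.0618. The cause of these changes was not tested. Whether replicate numbers pair the samples could not be decided. Deviations of same-numbered libraries correlated at 0.07 and 0.04, but with 2 DMSO libraries their deviations mirror each other. With the replicate block 9 members were lower (median -0.13) and 5 higher. In that fit UNC1999 replicate 3 had no DMSO partner and did not inform the comparison. Of the 19 called members, 5 were called in all 16 refits and 14 lost the call in at least one. Some members that were not called gained a call in a refit. Among them were LINC00299 and LINC00176, the latter with library totals alone and without UNC1999 replicate 2. Low counts limit what could be detected: 66 members had a mean under 50 counts.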
